A study of Mus musculus with 8 samples.

Results

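The Hox genes of C3H10T1/2, an embryonic mesenchymal line of the mouse strain C3H, were described from RNA-seq of 8 libraries. They were taken as every gene of the deposited table named Hoxa, Hoxb, Hoxc or Hoxd followed by a paralogue number, which gave 34 of the 18605 genes, 11 of the HoxA cluster, 8 of HoxB, 9 of HoxC and 6 of HoxD. Control cells (NC) are a non-target control in the paper's results but normal cells in its RNA-seq method, so that their construct is uncertain. Knockdown cells (KD-Nap1l2) carried an shRNA against Nap1l2, delivered by lentivirus. Both were harvested without induction and after 7 days of osteogenic induction (NC-7day and KD-Nap1l2-7day), with 2 libraries in each of the 4 groups. No group was kept for 7 days without induction. A change given here as on or after induction therefore cannot be told apart from one of 7 days in culture. The induction medium held dexamethasone, ascorbic acid and β-glycerol phosphate. Both populations are of 1 cell line, and which shRNA was used for these libraries and whether the replicates were separate cultures are not given in the sources used here, so that p-values measure only the spread between these libraries. Nap1l2, the targeted gene, had estimated counts of 3 and 3 in NC, 2 and 7 in the libraries labelled KD-Nap1l2, 15 and 5 in NC-7day and 7 and 13 in the libraries labelled KD-Nap1l2-7day. It was therefore not lower where the label says knockdown, at very few counts, and every direction given here is one between libraries as labelled. The paper reports knockdown in this line by western blot and qPCR, without saying that the cells of these libraries were the ones measured.

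Hox genes encode homeodomain transcription factors and lie in 4 clusters that arose by duplication of an ancestral cluster, so that genes with the same number in different clusters are paralogues. Along a cluster, genes with low numbers are used in anterior and genes with high numbers in posterior or distal parts of the embryo, and mesenchymal cells in culture often keep the Hox pattern of the site they came from. Their proteins bind DNA together with the TALE cofactors of the Pbx, Meis and Pknox families, while Polycomb complexes keep clusters silent and Trithorax group complexes keep them active.

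The sequence that all members have in common is the homeobox, the 60 codons of the DNA-binding domain. A homeobox was found in all 34 members in GENCODE vM21 transcripts (build GRCm38), in every case as 1 unbroken stretch of the genome. The 3 HoxC genes with a mean of at least 1 FPKM are shown with Hoxa13, the paralogue of Hoxc13, and with Hoxa2, the member with the highest level. The 18 bases in capitals encode a conserved stretch of the DNA-contacting helix, the third of the domain.
Hoxc13 (chr15:102927210-102927389, plus strand, exon 2 of 2): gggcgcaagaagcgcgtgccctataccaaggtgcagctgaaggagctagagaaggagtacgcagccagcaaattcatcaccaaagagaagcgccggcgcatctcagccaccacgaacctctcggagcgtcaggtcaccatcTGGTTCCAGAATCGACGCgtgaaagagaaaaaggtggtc
Hoxa13 (chr6:52258928-52259107, minus strand, exon 5 of 5): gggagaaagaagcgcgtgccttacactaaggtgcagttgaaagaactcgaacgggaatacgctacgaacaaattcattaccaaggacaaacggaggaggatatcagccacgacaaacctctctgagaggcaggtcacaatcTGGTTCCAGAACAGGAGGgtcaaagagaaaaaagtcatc
Hoxc9 (chr15:102983930-102984109, plus strand, exon 3 of 3): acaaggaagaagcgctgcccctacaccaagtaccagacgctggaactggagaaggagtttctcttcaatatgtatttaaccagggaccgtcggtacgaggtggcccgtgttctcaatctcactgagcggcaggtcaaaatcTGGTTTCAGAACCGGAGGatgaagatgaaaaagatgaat
Hoxc6 (chr15:103010754-103010933, plus strand, exon 2 of 2): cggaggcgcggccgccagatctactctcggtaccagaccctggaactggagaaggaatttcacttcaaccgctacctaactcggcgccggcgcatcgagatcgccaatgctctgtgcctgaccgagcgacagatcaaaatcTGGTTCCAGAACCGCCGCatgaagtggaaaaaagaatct
Hoxa2 (chr6:52163411-52163590, minus strand, exon 2 of 2): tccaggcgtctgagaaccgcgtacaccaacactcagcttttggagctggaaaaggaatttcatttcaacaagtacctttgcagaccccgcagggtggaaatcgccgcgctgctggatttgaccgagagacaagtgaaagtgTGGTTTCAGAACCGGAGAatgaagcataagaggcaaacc
Between members with the same number, the homeobox bases were identical at 73.3% to 93.9% of positions (median 82.8% over 33 pairs), compared with a median of 62.5% over the 134 pairs within a cluster. Hoxc13 and Hoxa13 shared 77.2% of the bases and Hoxc6 and Hoxa6 shared 84.4%, whereas Hoxc13 and Hoxc6, from the same cluster, shared 51.1%. The deposited estimated counts were not whole for 9 of the 34 members, so that some reads had been split between genes. The annotated span of Hoxa3 (52169059 to 52213067) also contains Hoxa4, Hoxa5 and Hoxa6. No fraction of a count was seen for Hoxa4 or Hoxa5. Hoxa3 had 510.99 in NC replicate 1 and whole numbers otherwise. Hoxa6 had 29.99 in KD-Nap1l2 replicate 1, 24.99 in KD-Nap1l2-7day replicate 2 and whole numbers otherwise. Hoxc6 had larger fractions, with 24.69 and 30.18 in NC and 99.92 and 129.76 in KD-Nap1l2. How the reads of these genes were assigned was not tested.

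The cells held RNA of the HoxA cluster and of a few HoxC genes, and almost none of HoxB or HoxD. Levels are given in FPKM, the counts scaled to gene length and library size by the authors, which allow genes to be compared. Of the 34 members, 11 had a mean of at least 1 FPKM over the 8 libraries, 8 of HoxA and 3 of HoxC, and 23 lay under 1 FPKM in every library. Library totals were 17420284 to 19427359 counts, and where 0 counts were seen a level of up to 3 counts (0.154 to 0.172 CPM, counts scaled to library size) cannot be told from it, by counting error alone.

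**Figure D1:**
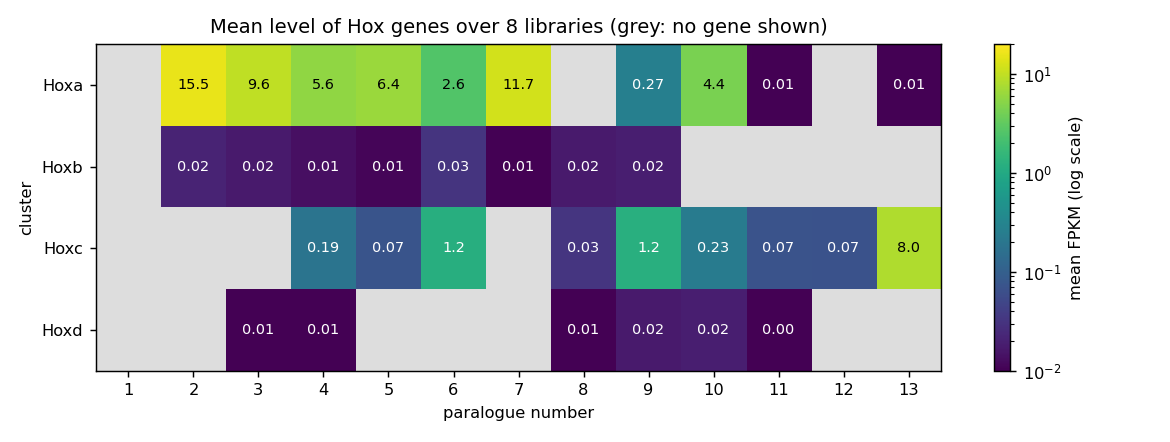
Mean FPKM of each Hox gene over the 8 libraries, with the cluster on the vertical axis, the paralogue number on the horizontal axis and the level as colour on a log scale; grey fields have no gene shown. HoxA is filled from Hoxa2 to Hoxa7, HoxC stands out at Hoxc13 with 8.04 FPKM, and HoxB and HoxD lie at or under 0.031 FPKM.

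Within HoxA, on chromosome 6, the level followed no steady slope from anterior to posterior. Hoxa2, which patterns the hindbrain and the skeleton of the second branchial arch, had the highest mean of all members, 15.5 FPKM, and lay above 73.0% of all genes in the table. Hoxa7 followed with 11.7, Hoxa3 with 9.57, Hoxa5 with 6.44, Hoxa4 with 5.62, Hoxa10 with 4.39 and Hoxa6 with 2.57 FPKM. Hoxa9 lay between Hoxa7 and Hoxa10 on the chromosome and had a mean of only 0.265 FPKM, with an estimated count of at most 24 in a library. The posterior genes Hoxa11, known for the forearm, and Hoxa13, known for the hand and foot, had at most 1 count in any library.

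HoxC, which covers 115.7 kb of chromosome 15 (102921131 to 103036856), was highest at its posterior end. Its last gene, Hoxc13, known for hair and nail, had a mean of 8.04 FPKM, while its neighbours on the cluster Hoxc12 and Hoxc11 had 0.069 and 0.070 FPKM and at most 3 counts in a library. Hoxc10 (0.235 FPKM), Hoxc4 (0.186), Hoxc5 (0.073) and Hoxc8 (0.033) were also under 1 FPKM in every library. Hoxc9 and Hoxc6, genes of the trunk, had means of 1.22 and 1.18 FPKM.

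The 8 HoxB genes (Hoxb2 to Hoxb9, chromosome 11, 96271330 to 96354020) had an estimated count of at most 3.34 in any library, and the 6 HoxD genes (Hoxd3, Hoxd4 and Hoxd8 to Hoxd11, chromosome 2, 74679558 to 74748271) of at most 3. Summed over 8 libraries, HoxB had 41.6 and HoxD 18.1 counts, against 17099 for HoxA and 3868 for HoxC. No group rose above these counts, and differences between groups within them were not detectable at this depth for these 14 genes. Another 5 Hox genes of the RefSeq annotation, Hoxb1, Hoxb13, Hoxd1, Hoxd12 and Hoxd13, had no entry among the 18605 genes and were not analysed here.

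The CpG content of promoters overlapped between members of high and of low level. RefSeq windows of 300 bases around a transcript start (GRCm38.p6) matched 18 of the 34 members in 20 windows, and the number of CpG dinucleotides was 14.5 in the median window against 7 over 32851 windows of all genes. The 7 windows of members with a mean of at least 1 FPKM held 9 to 29 CpG with a median of 20, and the 13 windows of members under 1 FPKM held 4 to 45 with a median of 14. Hoxa5 and Hoxa13 are shown because they lie in the same cluster and had means of 6.44 and 0.005 FPKM, with every CpG in capitals.
Hoxa5 (chr6:52204538-52204837, minus strand): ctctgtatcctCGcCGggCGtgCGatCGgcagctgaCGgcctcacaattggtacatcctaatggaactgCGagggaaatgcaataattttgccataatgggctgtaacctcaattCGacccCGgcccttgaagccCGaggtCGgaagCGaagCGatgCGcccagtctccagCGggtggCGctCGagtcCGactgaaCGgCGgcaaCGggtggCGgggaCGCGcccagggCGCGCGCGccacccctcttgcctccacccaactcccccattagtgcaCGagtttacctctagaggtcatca
Hoxa13 (chr6:52260831-52261130, minus strand): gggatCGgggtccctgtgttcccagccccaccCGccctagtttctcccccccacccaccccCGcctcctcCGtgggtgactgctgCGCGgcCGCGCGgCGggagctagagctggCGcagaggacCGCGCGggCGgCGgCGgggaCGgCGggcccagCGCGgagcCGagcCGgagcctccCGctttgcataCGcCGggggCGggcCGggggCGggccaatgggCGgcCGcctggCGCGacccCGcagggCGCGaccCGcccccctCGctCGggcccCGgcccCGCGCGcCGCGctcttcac
These windows hold 29 and 45 CpG, the highest number in each of the 2 classes, and the ratio of observed to expected CpG is 1.02 in Hoxa5 and 0.918 in Hoxa13, against a median of 0.384 over all windows. Some windows lie at distal transcript starts, and which start these cells used is not shown by the files.

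Summed over the cluster, HoxA had 66.7 ± 0.042 FPKM (SD, n = 2) in NC, 62.0 ± 5.80 in NC-7day, 57.2 ± 7.64 in KD-Nap1l2 and 46.4 ± 3.19 in KD-Nap1l2-7day. HoxC had 9.16 ± 0.014 FPKM (SD, n = 2) in NC, 7.11 ± 0.594 in NC-7day, 21.4 ± 0.587 in KD-Nap1l2 and 6.72 ± 1.34 in KD-Nap1l2-7day. The HoxC sum was thus highest in the 2 libraries labelled KD-Nap1l2, and most of it was Hoxc13.

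For tests, counts were rounded and fitted over all 8 libraries in edgeR (quasi-likelihood test), with Benjamini-Hochberg adjustment over 13470 genes. A gene is called where its adjusted p is under 0.05. The filter on low counts kept 14 of the 34 members, 9 from HoxA and 5 from HoxC, and the other 20 were not tested. Levels of a gene between libraries are given as CPM scaled by TMM, and fold changes are on the log2 scale.

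Without induction, the fitted levels of HoxC genes in KD-Nap1l2 lay above those in NC, but no Hox gene was called. All 5 tested HoxC genes had a positive log2 fold change, from 0.96 to 2.14 with a median of 1.28, and 6 of the 9 tested HoxA genes had a negative one, with a median of -0.31. Over all 14 the median was 0.07, and over all genes tested it was 0.01, with 48.5% of genes lower. By edgeR, 0 of the 14 members were called, where 0.0817% of all genes tested were called (11 genes, but 578 without KD-Nap1l2 replicate 1 and 0 without replicate 2), and 4 members had an unadjusted p under 0.05. DESeq2's Wald test called 2 of the 14, Hoxc6 and Hoxc13, and 460 of all genes (3.41%). With 2 libraries in a group, lack of overlap is common: 4 members were higher and 4 lower in KD-Nap1l2 than in NC without overlap, and 43.2% of all genes tested did not overlap.

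Hoxc6 had 1.35 and 1.54 CPM in NC, 3.28 and 2.57 in NC-7day, 5.36 and 7.41 in KD-Nap1l2 and 3.24 and 3.26 in KD-Nap1l2-7day. NC was lowest and KD-Nap1l2 highest, without overlap, and the groups after induction lay between them and overlapped with each other in CPM. Between KD-Nap1l2 and NC, the log2 fold change was 2.14 (SE 0.29, adjusted p = 0.0637 from edgeR), a 4.41-fold difference in the fitted values. Over the alternatives, its adjusted p ran from 7.71e-05 with DESeq2 to 0.330 without NC replicate 2.

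Hoxc13 had 18.5 and 17.8 CPM in NC, 11.4 and 12.2 in NC-7day, 37.6 and 38.7 in KD-Nap1l2 and 8.19 and 12.4 in KD-Nap1l2-7day. Both KD-Nap1l2 libraries were above all others, both NC libraries came next, and the groups after induction were lowest and overlapped. The difference of KD-Nap1l2 from NC was 1.07 on the log2 scale (SE 0.19, adjusted p = 0.0946 from edgeR), with adjusted p-values from 0.000831 with DESeq2 to 0.412 without NC replicate 2.

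Hoxc9 had 1.51 and 1.74 CPM in NC, 1.17 and 2.10 in NC-7day, 3.59 and 4.33 in KD-Nap1l2 and 0.604 and 1.72 in KD-Nap1l2-7day. The KD-Nap1l2 libraries again lay above the other 6, which overlapped. The log2 fold change against NC was 1.28 (SE 0.47, adjusted p = 0.292 from edgeR).

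**Figure D2:**
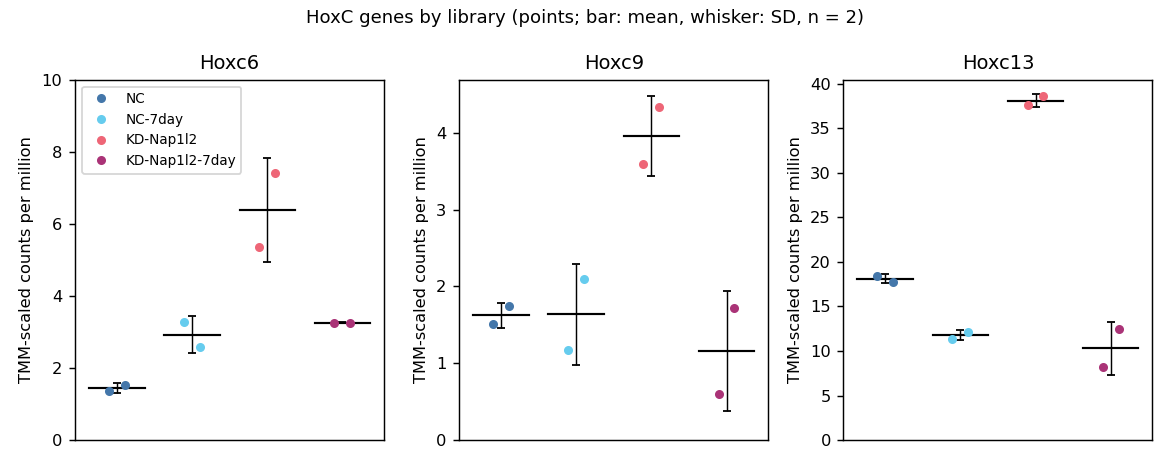
TMM-scaled CPM of Hoxc6, Hoxc9 and Hoxc13 in each library (points), coloured by group, with the mean as a bar and the SD as a whisker (n = 2). In all 3 genes both KD-Nap1l2 libraries lie above the other 6 libraries, for Hoxc13 at 37.6 and 38.7 CPM.

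Of the HoxA genes, Hoxa7, a gene of the thoracic region, had the smallest p between KD-Nap1l2 and NC. Its level was 12.0 and 13.8 FPKM in NC, 13.5 and 14.6 in NC-7day, 10.8 and 8.64 in KD-Nap1l2 and 9.80 and 10.7 in KD-Nap1l2-7day. Every library labelled KD-Nap1l2 or KD-Nap1l2-7day lay below every NC and NC-7day library. The log2 fold change was -0.42 (SE 0.14, adjusted p = 0.254 from edgeR) without induction and -0.45 (SE 0.14, adjusted p = 0.520) after it, so that neither was called.

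Hoxa2 varied widely between the KD-Nap1l2 replicates. It had 18.1 and 18.7 FPKM in NC, 14.8 and 18.1 in NC-7day, 17.6 and 11.5 in KD-Nap1l2 and 12.1 and 12.8 in KD-Nap1l2-7day. The KD-Nap1l2 replicates spanned most of the range of all libraries, and the fitted change against NC was -0.36 (SE 0.18, adjusted p = 0.427 from edgeR). Hoxa3, a gene of the pharyngeal arches, had 9.97 and 13.9 FPKM in the same KD-Nap1l2 libraries, with the higher value in the replicate that was lower for Hoxa2, and 9.23 and 10.8 in NC. Its groups overlapped in that comparison.

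**Figure D3:**
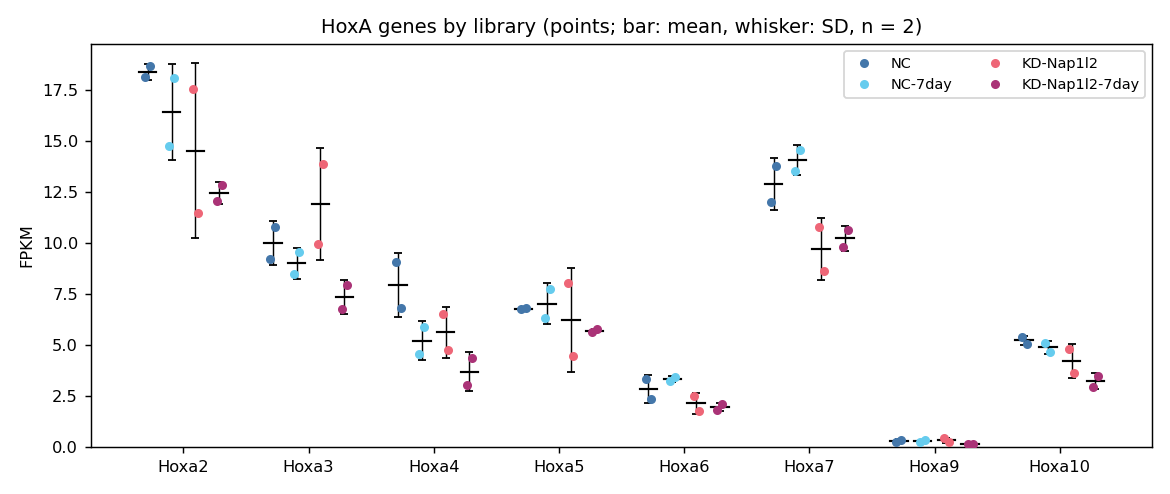
FPKM of tested HoxA genes in each library (points), coloured by group, with the mean as a bar and the SD as a whisker (n = 2). Hoxa2 and Hoxa7 are highest, and the KD-Nap1l2-7day libraries lie below the NC-7day libraries in all the genes shown.

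After 7 days of induction, all 9 tested HoxA genes had a lower fitted level in the libraries labelled KD-Nap1l2-7day than in NC-7day, by small amounts. The lowest log2 fold change was -0.92 (Hoxa9), with a median of -0.45, and 4 of the 5 HoxC genes were also lower, with a median of -0.20. The median over all 14 was -0.40, compared with -0.01 over all genes, of which 50.9% were lower. By edgeR, 0 of the 14 members were called, where 0% of all genes tested were called, 2 members had an unadjusted p under 0.05 (1057 of all genes), and DESeq2 called 0 members and 79 genes (0.586%). Without overlap, 0 members were higher and 8 lower, and 42.1% of all genes tested did not overlap.

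Hoxa10, a gene of the lumbar region and the uterus, had 5.11 and 4.66 FPKM in NC-7day and 2.96 and 3.5 in KD-Nap1l2-7day, and 5.39 and 5.05 in NC and 4.80 and 3.64 in KD-Nap1l2. Both comparisons showed no overlap, and the log2 fold change after induction was -0.58 (SE 0.20, adjusted p = 0.536 from edgeR). Hoxa6, the neighbour of Hoxa7, had 3.24 and 3.44 FPKM in NC-7day and 1.80 and 2.10 in KD-Nap1l2-7day, with a log2 fold change of -0.76 (SE 0.34, adjusted p = 0.640 from edgeR). Hoxc13 and Hoxc6, which stood apart without induction, differed by -0.20 (SE 0.20) and 0.15 (SE 0.28) at this time, and their groups overlapped in CPM. In FPKM, Hoxc6 had 0.81 and 0.63 in NC-7day and 1.34 and 1.12 in KD-Nap1l2-7day, without overlap.

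**Figure D4:**
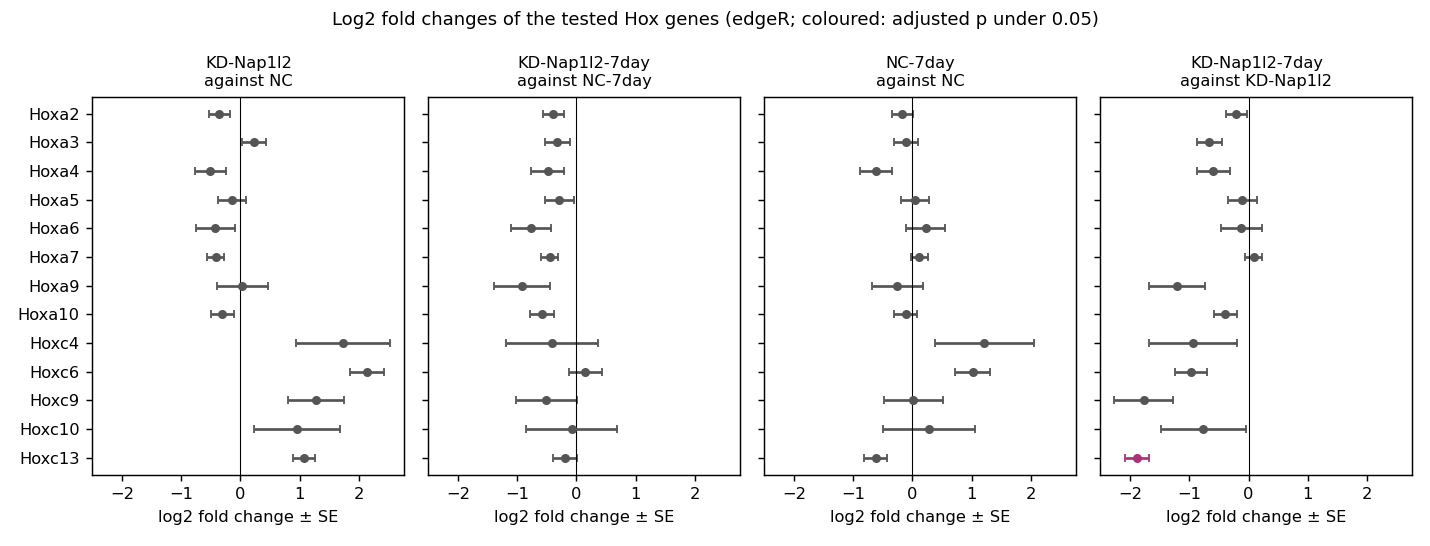
Log2 fold change with its SE (horizontal axis, edgeR) of tested Hox genes (vertical axis) in 4 comparisons. HoxC genes lie right of 0 in KD-Nap1l2 against NC and left of 0 in KD-Nap1l2-7day against KD-Nap1l2, where Hoxc13, at -1.89, is the gene in colour, with an adjusted p under 0.05.

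In NC cells, no Hox gene was called after 7 days of induction. Of the 14 tested, 7 were higher and 7 lower, with a median log2 fold change of -0.05, and over all genes the median was -0.00 with 50.4% lower. By edgeR, 0 of the 14 were called, where 8.22% of all genes tested were called (1107 genes, but 118 without NC replicate 1), and 2 members had an unadjusted p under 0.05. DESeq2 also called 0 members, and 1554 genes (11.5%). The smallest p-values were those of Hoxc6, with a log2 fold change of 1.02 (SE 0.30, adjusted p = 0.0781 from edgeR), and of Hoxc13, with -0.62 (SE 0.20, adjusted p = 0.09997). Both genes had no overlap between NC-7day and NC, in opposite directions, as had 2 higher and 4 lower members in all and 57.8% of all genes tested. Hoxa4, a gene of the neck region, had 9.05 and 6.82 FPKM in NC and 4.54 and 5.89 in NC-7day, and a log2 fold change of -0.61 (SE 0.27, adjusted p = 0.204 from edgeR).

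In the cells labelled KD-Nap1l2, Hoxc13 fell after induction, and it was the member called. From 37.6 and 38.7 CPM it went to 8.19 and 12.4, a log2 fold change of -1.89 (SE 0.20, adjusted p = 0.0019 from edgeR), or 3.70-fold lower. Over all 16 alternatives it stayed lower and called, with log2 fold changes from -2.23 to -1.62 and an adjusted p of at most 0.0151. By edgeR, 1 of the 14 members was called, where 14.2% of all genes tested were called (1913 genes, but 311 and 335 without replicate 1 or 2 of KD-Nap1l2-7day), and 5 members had an unadjusted p under 0.05. DESeq2 called 3 members, Hoxc13, Hoxc9 and Hoxa3, and 2390 of all genes (17.7%).

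The other HoxC genes had lower fitted levels in the same comparison. Hoxc9 had a log2 fold change of -1.77 (SE 0.49, adjusted p = 0.05004 from edgeR, just above the threshold), and Hoxc6 one of -0.97 (SE 0.27, adjusted p = 0.0520). Neither overlapped between the groups, nor did 8 members in all, each of them lower, and 61.4% of all genes tested. Without KD-Nap1l2-7day replicate 1, which held the lowest Hoxc9 level, the change of Hoxc9 was -1.20 (adjusted p = 0.234), and without replicate 2 it was -2.71. Of the 14 members, 13 were lower, with a median of -0.65, compared with a median of -0.01 over all genes, of which 50.6% were lower. The median was -0.97 in HoxC and -0.39 in HoxA, and Hoxa7, at 0.09, was the member that was not lower.

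The induction changes of both cell populations were compared directly through their difference, the change in KD-Nap1l2 cells minus that in NC cells. It was -1.99 (SE 0.40, adjusted p = 0.404 from edgeR) for Hoxc6, -1.27 (SE 0.28, adjusted p = 0.436) for Hoxc13 and -1.79 (SE 0.70, adjusted p = 0.680) for Hoxc9. All 5 HoxC genes had a negative difference, with a median of -1.79, and 8 of 9 HoxA genes did, with a median of -0.25, against a median of -0.02 and 52.1% of genes below 0 over all genes tested. Hoxc4 and Hoxc10, which had few counts, are among these 5. By edgeR, 0 of the 14 members were called, where 0% of all genes tested were called, 3 members had an unadjusted p under 0.05 (947 of all genes), and DESeq2 called 1 member, Hoxc13 (adjusted p = 0.0396), and 98 genes (0.728%). The comparisons share libraries, since the KD-Nap1l2 libraries enter both the knockdown and the induction contrast, so that the values of one are not independent of the other.

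The TALE cofactors through which Hox proteins bind DNA were all measured. Meis2 (mean 37.4 FPKM) and Pbx2 (18.4) were among the highest of the 9. In both knockdown comparisons 0 of the 9 were called by edgeR, with 2 and 1 at an unadjusted p under 0.05, while DESeq2 called 1 (Meis3, lower in KD-Nap1l2) and 0. On induction 2 of the 9 were called in each cell population, where 8.22% of all genes were called in NC and 14.2% in KD-Nap1l2 cells. Meis2 rose, by 0.48 (SE 0.12, adjusted p = 0.0470) in NC cells and 0.56 (SE 0.12, adjusted p = 0.0223) in KD-Nap1l2 cells on the log2 scale. Pknox2 fell, with log2 fold changes of -1.55 (SE 0.28, adjusted p = 0.0168) and -1.69 (SE 0.29, adjusted p = 0.0104). Its level was 2.76 and 2.05 FPKM in NC, 0.73 and 0.90 in NC-7day, 2.04 and 2.10 in KD-Nap1l2 and 0.76 and 0.51 in KD-Nap1l2-7day.

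Of the Polycomb genes, which encode repressors of Hox clusters, all 31 listed were tested, and Rbbp7 (105.8 FPKM), Rbbp4 (101.7) and Cbx6 (66.01) were the highest. In the knockdown comparisons 0 were called by edgeR, with 3 and 2 at an unadjusted p under 0.05, and DESeq2 called 1 (Cbx2, higher in KD-Nap1l2) and 0. On induction of NC cells Ezh1, a subunit that methylates histone H3, rose by 0.94 (SE 0.18, adjusted p = 0.0214). It was 1 of the 31 (3.23%), where 8.22% of all genes were called. In KD-Nap1l2 cells 6 of the 31 were called (19.4%), where 14.2% of all genes were. Of these, 2 rose and 4 fell, among them Ezh1 with 0.75 (SE 0.18, adjusted p = 0.0329), Phc2 with 0.61 (SE 0.16, adjusted p = 0.0395), Jarid2 with -1.06 (SE 0.21, adjusted p = 0.0164) and Rnf2, a ubiquitin ligase gene of the same repressors, with -0.70 (SE 0.14, adjusted p = 0.0173). The 18 Trithorax and other activating regulators, with Rad21 (83.1 FPKM), Psip1 (45.4) and Dpy30 (44.8) the highest, had 0 calls in every comparison by edgeR, with 2, 0, 0 and 2 genes at an unadjusted p under 0.05 in the order of comparisons above and 1 in their difference, and 0 calls by DESeq2.

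Other transcription factors of positional identity were called on induction, most of them as lower. Of 42 listed genes, 27 were tested, and Prrx1 (158.2 FPKM) and Prrx2 (97.9) were the highest. In the knockdown comparisons 0 were called by edgeR, with 3 and 4 at an unadjusted p under 0.05, and 0 by DESeq2. On induction 6 of the 27 were called in NC cells (22.2%), where 8.22% of all genes were, and 9 in KD-Nap1l2 cells (33.3%), where 14.2% of all genes were. In NC cells 1 rose, Foxf2 (0.72, SE 0.18, adjusted p = 0.0476), and 5 fell, among them Foxf1 (-1.35, SE 0.26, adjusted p = 0.0210) and Msx1 (-0.90, SE 0.21, adjusted p = 0.0399). In KD-Nap1l2 cells 0 rose and 9 fell, among them Msx1 (-1.41, SE 0.21, adjusted p = 0.0067) and Lhx2 (-2.04, SE 0.46, adjusted p = 0.0268).

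Of the upstream inducers of Hox genes, 9 of 17 listed were tested, and the retinoid receptor genes Rarg (90.7 FPKM), Rara (27.7) and Rxra (25.7) were the highest. Cyp26a1, which encodes an enzyme that degrades retinoic acid, was called on induction of KD-Nap1l2 cells (adjusted p = 0.0442 from edgeR), at levels of 0 and 0.04 FPKM before and 0.28 and 0.29 after, and 0 were called in the other comparisons, with 1, 1 and 2 at an unadjusted p under 0.05 and 1 in the difference. DESeq2 called 1 of these genes in all, Cyp26b1, as lower on induction of NC cells, and not Cyp26a1. Of the neighbours and transcripts of the clusters, 9 of 23 listed were tested, and the flanking genes Hnrnpa2b1 (229.9 FPKM), Calcoco1 (43.9) and Cbx5 (41.1) were the highest. Cbx5, which lies beside HoxC, fell on induction of KD-Nap1l2 cells by 0.48 on the log2 scale (SE 0.12, adjusted p = 0.0367 from edgeR), and it was also the one called by DESeq2.

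The label of a mesenchymal line was checked with marker genes. Of 12 mesenchymal markers, 10 had at least 1 FPKM in every library, and their sum was 5317 to 5797 FPKM in NC, 3127 to 4408 in NC-7day, 5584 to 7798 in KD-Nap1l2 and 3027 to 3404 in KD-Nap1l2-7day. Summed levels were 2.68 to 9.09 FPKM for haematopoietic, 0.44 to 2.13 for epithelial and 0.34 to 1.56 for endothelial markers. Neural markers summed to 12.3 to 18.1 FPKM, and all of these sums lay far below the mesenchymal one. Map2 made up most of the neural sum (9.70 to 16.9 FPKM, a level like that of Hoxa2). Cd68 made up most of the haematopoietic sum (2.56 to 9.03), for which 4 of 6 markers were in the deposited table. The mesenchymal markers under 1 FPKM in some or all libraries were Thy1 (0.59 to 5.79) and Nt5e (at most 0.05). The mesenchymal sum was lower after induction in both cell populations, as were Hoxc13 levels, and its part in the Hox results was not tested. It mainly followed Vim, Col1a2, Col1a1 and Col3a1 (means 2624.6, 845.9, 570.2 and 364.6 FPKM), each lower after induction in both populations. Eng, on the same list, was higher after induction in both. It had 18.1 and 20.04 FPKM in NC and 20.42 and 24.69 in NC-7day. In KD-Nap1l2 it had 20.54 and 16.21, and in KD-Nap1l2-7day 25.89 and 24.33. The lower sum is thus not a fall of every mesenchymal marker. In bulk RNA, fewer cells of a type and less RNA per cell cannot be told apart.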

How the data were processed

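RNA was extracted with Trizol, and libraries were prepared and sequenced by BGI. Per the submitters' processing notes, BWA, Bowtie2 and RSEM were used with build GRCm38.p6, and versions are not given in the sources used here. The authors deposited estimated counts for each gene and transcript, and FPKM values, for which the authors divided the estimated counts by gene length and library size. At least 1 count was not whole in 41.1% of genes. Tables with the authors' own DESeq2 comparisons (fold changes and p-values) were not used.

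Estimated counts of 18605 genes were rounded, normalized by TMM and filtered with filterByExpr, which kept 13470 genes. The 8 libraries were fitted in one model with edgeR 4.0.16 (R 4.3.3), without a replicate block, and tested with the quasi-likelihood test. Benjamini-Hochberg adjusted p-values under 0.05 were calls. SE is |log2 fold change|/√F. Groups of 2 allow no exact permutation p below 0.333. Members were named, and fold changes were given for called members and, where fewer than 3 were called, for the smallest p-values up to 3. From other lists, called genes were named, at most 3 of the largest changes in each direction, and the 3 highest levels. Further fold changes of members, Meis3, Cbx2 and Cyp26b1 were added after their values were seen. Some genes that entered the counts, and a sequence, are not reported here. The members and the gene lists were chosen with earlier results of these data known. As alternatives, RLE size factors, DESeq2 1.42.0, no filter, at least 10 counts in every library, a replicate block, limma 3.58.1 on log2(FPKM + 1) and log2(FPKM + 0.1), the 4 libraries compared alone, and each library left out were tried. The tests were tested on simulated data. Homeoboxes were read from GENCODE vM21 and promoters from RefSeq with Python 3.11.15.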

Additional observations from a re-analysis of the deposited data

Results flagged for a closer look

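Hoxc6 was set apart because its induction change ran in opposite directions in the cell populations. It was 1.35 and 1.54 CPM in NC and 3.28 and 2.57 in NC-7day, and 5.36 and 7.41 in KD-Nap1l2 and 3.24 and 3.26 in KD-Nap1l2-7day, so that both libraries after induction lay above both before it in NC cells and below both in KD-Nap1l2 cells. The test of the difference itself gave -1.99 on the log2 scale (SE 0.40) and did not pass the threshold (adjusted p = 0.404 from edgeR). Over 15 alternatives the difference was negative in all 15, from -2.20 to -0.88. The alternatives refit the libraries in which the opposite directions had been seen, so that the sign had little room to change. It is therefore no separate evidence. With all 8 libraries kept, the adjusted p ran from 0.0798 with DESeq2 to 0.520 with a replicate block.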

How the results depend on the processing

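With 2 libraries in a group and few counts in most members, only a change of a HoxB or HoxD gene well above 3.34 counts, the most seen in any library, could have been seen. None rose above that, and smaller changes could not be seen at this depth. The 15 named log2 fold changes kept their direction in all 237 alternative values. They had been chosen for the smallest p-values in these same libraries, so that a kept direction was likely from the start. Of the values, 216 also kept their side of the threshold, 21 passed it in addition, and 0 lost a call. The number of members called between KD-Nap1l2 and NC, 0 in the report, was 2 with DESeq2 and with no filter (Hoxc6 and Hoxc13 both times), 1 with limma on log2(FPKM + 1) and on log2(FPKM + 0.1) (Hoxc6), and 0 to 1 with a library left out (Hoxc6 without NC-7day replicate 1 or 2 or KD-Nap1l2 replicate 1). Between KD-Nap1l2-7day and KD-Nap1l2, 1 member (1913 of 13470 genes) became 3 with DESeq2 (2390 genes), 3 with at least 10 counts in every library (1763 of 12027 genes), 2 with no filter (2018 of 18588), 2 and 2 with limma at both pseudocounts (1631 and 1704), and 1 to 3 with a library left out, Hoxc9, Hoxc6 or Hoxa3 being added and Hoxc13 always present. For the difference between the induction responses it was 1 with DESeq2 (Hoxc13) and 0 otherwise, and for KD-Nap1l2-7day against NC-7day and NC-7day against NC it was 0 under all alternatives. Over all genes, DESeq2 called 460, 79 and 98 genes where edgeR called 11, 0 and 0 (KD-Nap1l2 against NC, KD-Nap1l2-7day against NC-7day, and the difference). Between KD-Nap1l2 and NC it was 160 genes with no filter, 4 with at least 10 counts, 33 and 18 with limma, and 0 with the 4 libraries alone. With a library left out it was 578 without KD-Nap1l2 replicate 1, 149 and 150 without NC-7day replicate 1 and 2, and 0 to 3 otherwise. Between NC-7day and NC, 1107 genes became 118 and 527 without NC replicate 1 and 2, 587 without NC-7day replicate 1, 578 and 580 without KD-Nap1l2-7day replicate 1 and 2, and 936 to 1500 otherwise. Between KD-Nap1l2-7day and KD-Nap1l2, 1913 became 311 and 335 without KD-Nap1l2-7day replicate 1 and 2, 1213 without KD-Nap1l2 replicate 2, and 1384 to 2238 otherwise. Without NC-7day replicate 1, 1 gene was called between KD-Nap1l2-7day and NC-7day and 18 in the difference, and 0 without any other library. Each range of genes given as otherwise is over libraries left out. With the 4 libraries compared alone, 749 genes were called between NC-7day and NC and 1749 between KD-Nap1l2-7day and KD-Nap1l2. DESeq2 called 1554 and 2390. The cause of these shifts was not tested.

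Libraries with the same replicate number in different groups showed little common deviation, with correlations from -0.11 to 0.14. Such small correlations cannot exclude a shared culture or batch that acts on some genes, so that pairing was left undecided. With the replicate number as a block, 3 members (Hoxc13, Hoxc9 and Hoxa3) were called between KD-Nap1l2-7day and KD-Nap1l2, with 1758 of all 13470 genes, and 0 in the other comparisons, and 4 genes in place of 11 between KD-Nap1l2 and NC.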

Other observations

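The deposited transcript table assigned the counts of Hoxa9 to a different transcript before and after induction. The estimated counts of transcript NM_010456.3 were 16 and 23 in NC, 18.4 and 14 in KD-Nap1l2, and 0 in all 4 libraries after induction. Those of NM_001277238.1 were 0 in both NC libraries, 5.55 and 0 in KD-Nap1l2, 12 and 19 in NC-7day and 9 and 7 in KD-Nap1l2-7day. The counts are few and were split by the authors' estimation, and the switch was not tested.

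The 3 transcripts of Hoxc6 did not share its pattern equally. NM_010465.2 had 7.63 and 7.58 estimated counts in NC, 34.8 and 70.9 in KD-Nap1l2, 10.9 and 6.81 in NC-7day and 25.9 and 23.9 in KD-Nap1l2-7day, so that it was higher in the libraries labelled as knockdown at both times. XM_006520468.3 had 13.8 and 22.6 in NC, 57.4 and 49.0 in KD-Nap1l2, 37.9 and 33.7 in NC-7day and 21.3 and 29.7 in KD-Nap1l2-7day, so that the order after induction was the reverse. In Hoxa10, NM_008263.3 took 25.4 and 32.0 in NC, 33.3 and 31.2 in KD-Nap1l2, but 11.1 and 17.8 in NC-7day and 13.2 and 15.5 in KD-Nap1l2-7day, without overlap between the times. The transcript values were chosen after they were seen.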
